A study of Mus musculus with 12 samples.

Results

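The BCL2 family survival genes described here are 9 genes, Bcl2, Bcl2l1, Mcl1, Bcl2l11, Bbc3, Pmaip1, Bid, Bax and Bak1, chosen by name among the 36222 genes of the deposited expression table, each matching 1 gene identifier. RNA was sequenced from 12 libraries of mouse regulatory T cells (Treg), the CD4+ T cells that express Foxp3 and restrain immune responses, to ask what loss of the transcription factor Ikaros does to them without and after stimulation. All mice carried Foxp3-YFP-Cre, a Cre recombinase with a yellow fluorescent tag driven by Foxp3, and Treg were sorted as YFP+ cells from the CD4+ T cells of individual mice, which the study describes as matched for age, a few weeks old. The labels name the spleen as the source, and the study's methods name spleen and lymph nodes for Treg purification. Wild-type (WT) mice carried the Cre alone, and Ikzf1 cko mice (cKO) also carried floxed alleles of Ikzf1, the gene of Ikaros, so that the deletion is limited to cells that express or have expressed the Foxp3-driven Cre. Cells were either left unstimulated (ex vivo) or activated for 4 h by antibodies to CD3 and CD28 bound to the plate, each at 1 µg/ml. Genotype and stimulation thus make 4 groups, each of 3 libraries.

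Proteins of the BCL2 family decide at the mitochondrial outer membrane whether a cell undergoes apoptosis. The pro-survival members, among them BCL-2 (Bcl2), BCL-XL (Bcl2l1) and MCL-1 (Mcl1), hold the effectors BAX and BAK in check. The BH3-only members BIM (Bcl2l11), PUMA (Bbc3), NOXA (Pmaip1) and BID (Bid) sense stress or the loss of cytokines and bind the pro-survival proteins or the effectors. Free BAX and BAK open the outer membrane, cytochrome c leaves it, and caspases are activated. Treg are known to depend on IL-2 and on MCL-1, and BIM is the member best known for limiting their numbers. Much of the control of these proteins lies in their stability and binding, which RNA does not show.

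The promoters are shown first, because Ikaros, forkhead factors and STAT5 are known regulators of lymphocyte survival and the short sequences they recognise can be read in them. Windows of 300 bases, from 250 before to 50 after a start site, were taken from RefSeq (build GRCm38.p6) for 8 of the 9 members, 13 windows in all. Pmaip1 was left out and its promoter was not searched, so the counts of members below do not cover it. They were searched on both strands for GGGAA, the core of Ikaros sites, for GTAAACA, a forkhead sequence, and for TTCNNNGAA, a STAT sequence, and matches on either strand are printed in capitals (TTCCC and TGTTTAC are the same letters on the opposite strand). GGGAA stood in 7 of the 13 windows, in 5 members, against 62.7% of all 32851 windows of that length. GTAAACA stood in 2 of the 13, against 3.65% of all windows, and TTCNNNGAA in 0, against 8.3%. The 4 windows printed are those of Bcl2 and Bcl2l11, the members that differed between genotypes after stimulation, of Bbc3, which holds the other GTAAACA match, and of Mcl1, which had the most matches to GGGAA, 6.
Bcl2 (chr1:106714241-106714540, minus strand, 0 matches): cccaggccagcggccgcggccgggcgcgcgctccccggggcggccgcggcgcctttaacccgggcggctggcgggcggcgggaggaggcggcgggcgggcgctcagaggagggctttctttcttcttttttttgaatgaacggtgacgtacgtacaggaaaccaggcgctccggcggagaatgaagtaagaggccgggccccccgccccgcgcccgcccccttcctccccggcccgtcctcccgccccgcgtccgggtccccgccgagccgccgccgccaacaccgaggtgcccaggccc
Bcl2l11 (chr2:128125788-128126087, plus strand, 1 GTAAACA): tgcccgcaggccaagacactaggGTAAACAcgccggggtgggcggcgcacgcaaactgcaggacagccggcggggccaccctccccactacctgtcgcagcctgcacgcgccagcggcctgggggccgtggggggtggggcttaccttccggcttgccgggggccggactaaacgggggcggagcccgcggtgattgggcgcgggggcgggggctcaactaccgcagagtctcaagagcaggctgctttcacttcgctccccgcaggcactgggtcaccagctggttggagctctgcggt
Bbc3 (chr7:16310011-16310310, plus strand, 1 GGGAA and 1 GTAAACA): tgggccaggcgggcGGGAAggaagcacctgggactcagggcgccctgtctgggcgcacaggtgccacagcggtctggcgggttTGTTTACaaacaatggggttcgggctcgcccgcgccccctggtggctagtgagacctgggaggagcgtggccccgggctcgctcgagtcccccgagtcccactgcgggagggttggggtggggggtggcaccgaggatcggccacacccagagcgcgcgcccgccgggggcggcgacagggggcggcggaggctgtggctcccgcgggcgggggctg
Mcl1 (chr3:95658471-95658770, plus strand, 6 GGGAA): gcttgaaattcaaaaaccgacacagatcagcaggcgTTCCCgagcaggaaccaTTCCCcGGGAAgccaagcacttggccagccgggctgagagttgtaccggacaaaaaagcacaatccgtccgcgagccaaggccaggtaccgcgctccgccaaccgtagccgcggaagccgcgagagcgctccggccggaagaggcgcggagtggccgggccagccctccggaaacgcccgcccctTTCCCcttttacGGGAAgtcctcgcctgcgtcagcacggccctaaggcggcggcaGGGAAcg
These letters describe the windows only, and binding was not analysed here. The other Bcl2l11 window, chr2:128127325-128127624, had 0 matches.

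All values below are scaled TPM, that is, reads per gene divided by gene length and by the library's total and then brought to a common scale across libraries, so that they are per transcript length and levels can be compared between genes. In mm9, the build of the files, the members lie on 7 chromosomes. Bcl2 spans chr1:108434755-108610851 on the minus strand, Bcl2l1 chr2:152593052-152657464 on the minus strand and Bcl2l11 chr2:127951774-127988283 on the plus strand. Mcl1 lies at chr3:95462643-95467099 (plus), Bid at chr6:120841948-120866871 (minus) and Pmaip1 at chr18:66618258-66625204 (plus). Bbc3 at chr7:16894965-16903554 (plus) and Bax at chr7:52717065-52722268 (minus) share a chromosome, and Bak1 lies at chr17:27156755-27165954 (minus). Reads were counted on the exons of each gene by strand, and no member shared an exon with another gene on its strand in the annotation used.

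Libraries held 8208659 to 20247649 reads assigned to genes, and the values of members rested on 113 to 6820 reads. Ikzf1, the targeted gene, stood at 114, 104 and 113 scaled TPM in WT ex vivo and 42.1, 33.0 and 38.4 in cKO ex vivo, and at 66.7, 71.1 and 68.9 in WT stimulated and 29.96, 30.1 and 23.3 in cKO stimulated. It fell by 1.52 ex vivo (log2, adjusted p 5.45e-05) and by 1.29 after stimulation (adjusted p 0.000161). The 6 Treg markers summed to between 1064 and 2086 scaled TPM in every library, and Foxp3 was at 88.6 to 240 scaled TPM. The gene model Gm10800 took 17.7% to 55.9% of the deposited TPM, and since TPM sum to a fixed total the deposited values of other genes carry this share. It took more in stimulated cKO (42.9% to 55.9%) than in ex vivo cKO (20.4% to 24.4%). In stimulated WT the range was 32.6% to 44.4%, so the share ran along genotype as well. Depth was 10045424 to 13440658 reads in stimulated WT and 8208659 to 10930376 in stimulated cKO. The part of either in the genotype differences was not tested. Library WT ex vivo 3 had Xist at 179 TPM and Ddx3y at 0.097 TPM, the pattern of a female, and the other 11 had the pattern of males. Of 5 genes fixed as a check of stimulation, Egr2 (1.48 in WT and 1.31 in cKO), Myc (0.61 and 0.64) and Irf4 (1.56 and 0.95) rose in both genotypes, Cd69 fell in both (-1.36 and -1.71), and Nr4a1 fell in WT (-0.55, adjusted p 0.0307). In bulk RNA, fewer cells of a type and less RNA per cell cannot be told apart.

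Mcl1 was the most abundant member in all 4 groups, at 134 ± 19.5 scaled TPM (SD, n = 3) in WT ex vivo, above 96.9% of the 13318 genes tested. Bcl2 followed at 50.9 ± 5.42, and its libraries lay above those of Pmaip1 at 41.5 ± 2.78. Pmaip1, Bcl2l11 (37.7 ± 5.37), Bax (30.6 ± 5.66) and Bak1 (26.4 ± 4.05) overlapped each with its neighbour in this order, as did Bcl2l1 (19.3 ± 0.716) and Bbc3 (18.98 ± 4.42). Bid was lowest at 7.13 ± 0.792, above 39.0% of the tested genes. In stimulated WT the order was different, with Bcl2l11 in rank 2 and Bcl2 in rank 6 of the 9. In stimulated cKO the same pair stood the other way round, with Bcl2 in rank 2 and Bcl2l11 in rank 6.

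**Figure D1:**
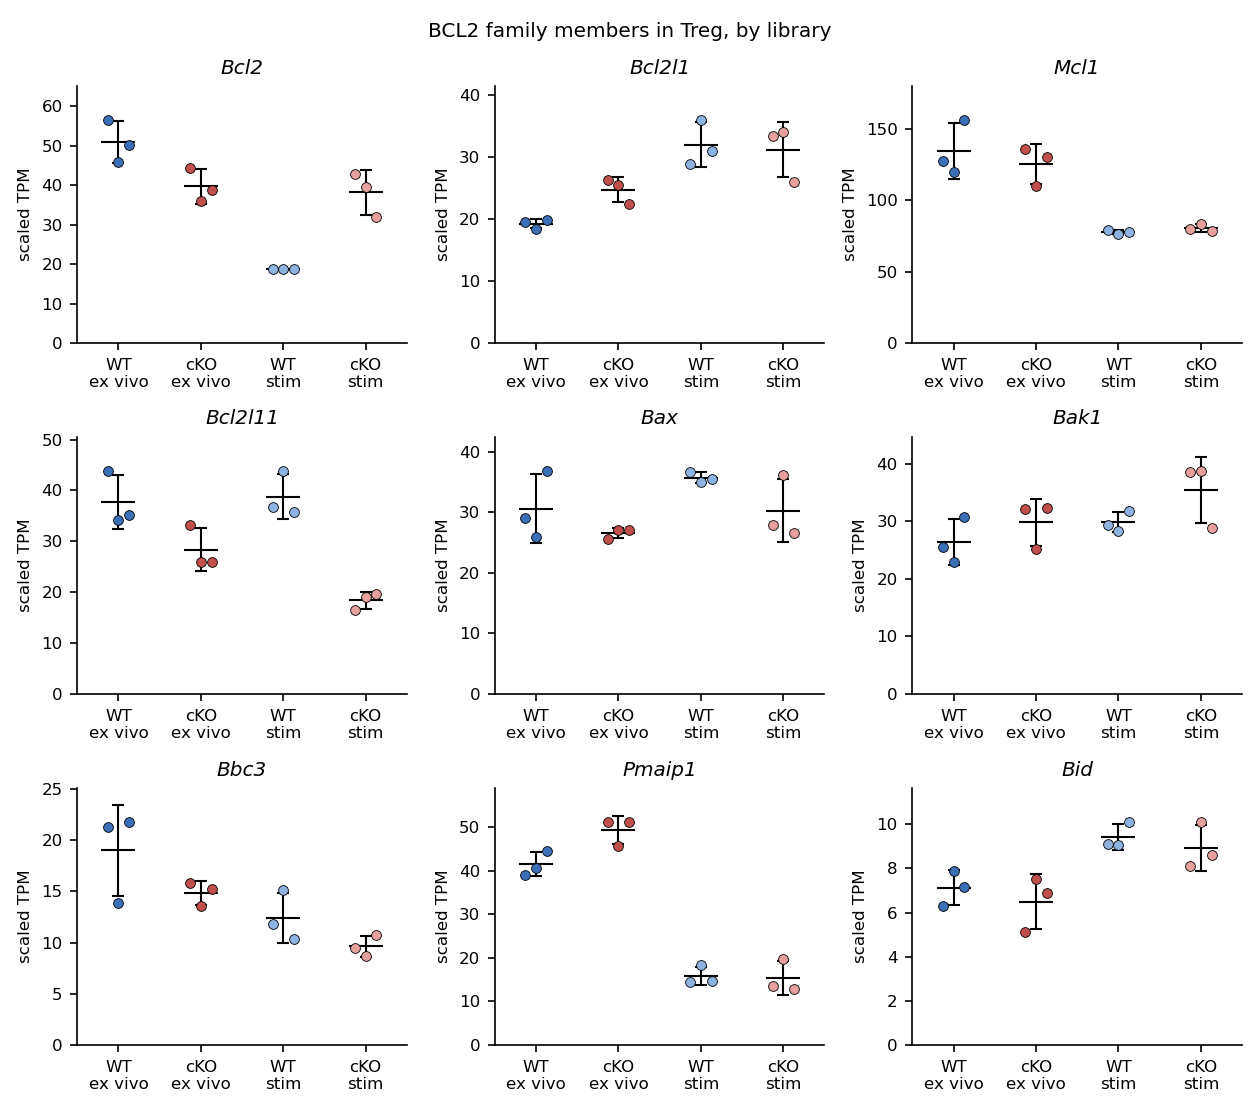
Scaled TPM (vertical axes, from 0) of the 9 members in each of the 12 libraries, in 4 groups of 3 (horizontal axes). Points are libraries, lines are group means and bars are 1 SD. Bcl2 of the 3 WT stimulated libraries lies at 18.6 to 18.9, under all other groups, and Bcl2l11 of the 3 cKO stimulated libraries at 16.4 to 19.6, under all other groups.

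The genotype comparison after stimulation asks which genes depend on Ikaros in activated Treg. In it Bcl2 was higher and Bcl2l11 was lower in cKO Treg, each by about the same amount, and the other 7 members did not pass the test. Bcl2, the founding pro-survival gene, was measured in WT at 18.6, 18.9 and 18.6 scaled TPM and in cKO at 42.9, 39.6 and 31.9. Every cKO library lay above every WT library. The difference on the log2(scaled TPM + 1) scale was 0.98 (SE 0.12, limma adjusted p 0.00101). Bcl2l11, the gene of BIM, stood at 36.7, 43.8 and 35.8 scaled TPM in WT and at 16.4, 19.1 and 19.6 in cKO. Here the highest cKO library lay under the lowest WT library, and the difference was -1.03 (SE 0.13, adjusted p 0.00123).

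With 1 member higher and 1 lower of 9, the members can be read against 3.3% of all 13318 tested genes called higher and 3.63% called lower. With any 1 of the 12 libraries left out both calls held, at adjusted p-values of up to 0.00685 for Bcl2 and 0.00809 for Bcl2l11. They did not hold everywhere. When genes down to 1 TPM entered, which moved the median of the same 13318 genes from -0.03 to -0.31 on the log2 scale, Bcl2 was at 0.68 (adjusted p 0.337) and Bcl2l11 at -1.32 (adjusted p 0.0596), and with the TPM as deposited Bcl2 was at 0.70 (adjusted p 0.118). The ratio of the pair within a library, given further on, is free of this scaling. It is no separate support, since the pair holds the 1 member called higher and the 1 called lower. Nor does a ratio show which gene moved.

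The remaining pro-survival genes stood close together in the stimulated genotypes. Bcl2l1, the gene of BCL-XL, was at 32.0 ± 3.66 scaled TPM in WT and 31.2 ± 4.44 in cKO (SD, n = 3 each), a difference of -0.04 with a 95% interval of -0.30 to 0.22. Mcl1 was at 77.8 ± 1.33 and 80.4 ± 2.53, a difference of 0.05 with an interval of -0.20 to 0.29. Both genes overlapped between the genotypes. The sign of each depended on the scaling, since quantile normalization gave 0.10 for Bcl2l1 and the deposited TPM gave -0.24 for Mcl1. Quantile normalization also called Mcl1 higher in cKO (0.26, adjusted p 0.036).

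Among the other BH3-only genes, Bbc3, the p53 target PUMA, was at 11.8, 15.1 and 10.3 scaled TPM in stimulated WT and 9.48, 8.68 and 10.8 in stimulated cKO, and the difference of -0.33 (SE 0.17) had an adjusted p of 0.283. The ranges overlapped. Pmaip1, the gene of NOXA, which binds MCL-1, differed by -0.06 (adjusted p 0.846), and Bid, whose protein is cleaved by caspase-8, by -0.07 (adjusted p 0.765). The effectors Bax (-0.24, adjusted p 0.297) and Bak1 (0.23, adjusted p 0.368) did not pass either, and both overlapped between genotypes. Quantile normalization called Bak1 (0.40, adjusted p 0.034), while lower filters and the deposited TPM turned its sign.

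Markers of B cells, which are not part of the sort, moved with genotype. The 4 B cell markers summed to 9.27 to 11.3 scaled TPM in stimulated WT and 14.0 to 21.3 in stimulated cKO, and the 1 tested of the 4, Cd79b, was higher in cKO (0.96, adjusted p 0.0283). The other 3 stayed under 5 TPM in every group mean, none of them at 0 in a whole group, where genes of olfactory receptors, silent in T cells, had a median of 0.911 scaled TPM in stimulated WT and 1.19 in stimulated cKO. Ex vivo the same sum was 8.62 to 13.5 in WT and 15.3 to 18.7 in cKO. The markers of CD8 T cells (11.6 to 14.3 in stimulated WT, 9.91 to 14.5 in stimulated cKO), myeloid cells (7.62 to 10.5 and 9.18 to 13.4), NK cells (4.47 to 5.66 and 5.24 to 7.37) and erythroid cells (2.36 to 3.51 and 2.46 to 7.62) overlapped between the genotypes, and Hba-a1 was the marker at 0 in all 3 stimulated WT libraries. Foxp3 was higher in stimulated cKO as well, by 0.96 (adjusted p 0.00847). The part of these cells in the Bcl2 and Bcl2l11 differences was not tested.

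The genotype comparison ex vivo asks the same of unstimulated Treg. Here 0 of the 9 members passed the limma test, against 3.62% of the tested genes called higher and 1.67% called lower, while 3 of 9 had an unadjusted p under 0.05 and a voom fit to the recovered reads called 1 of 9, Bcl2l11. Bcl2 stood at 56.6, 45.8 and 50.2 scaled TPM in WT and 44.4, 35.9 and 38.7 in cKO, a difference of -0.35 (SE 0.12, adjusted p 0.141). Its cKO libraries all lay under the WT libraries, the reverse of the order after stimulation, although with the deposited TPM the groups overlapped. Bcl2l11 stood at 43.9, 34.1 and 35.1 in WT and 33.2, 25.9 and 26.0 in cKO, a difference of -0.40 (SE 0.13, adjusted p 0.128; voom adjusted p 0.044).

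Bcl2l1 leaned the other way ex vivo, with 19.4, 18.5 and 19.9 scaled TPM in WT and 26.3, 25.5 and 22.4 in cKO. The groups did not overlap, and the difference of 0.34 (SE 0.12) had an adjusted p of 0.137. Pmaip1 did not overlap either, at 39.1, 40.7 and 44.5 in WT and 51.3, 45.6 and 51.2 in cKO, with a difference of 0.25 (SE 0.15, adjusted p 0.445). Mcl1 (-0.10), Bax (-0.18), Bak1 (0.17), Bbc3 (-0.31) and Bid (-0.13) overlapped between the genotypes, at adjusted p-values of 0.403 to 0.742. The narrowest of the 9 intervals, that of Mcl1, ran from -0.34 to 0.15. Without library WT ex vivo 3, the female, the differences of Bcl2 (-0.36), Bcl2l11 (-0.45) and Bcl2l1 (0.36) were at adjusted p-values of 0.262, 0.188 and 0.22, and the sign for Mcl1 turned (0.01).

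**Figure D2:**
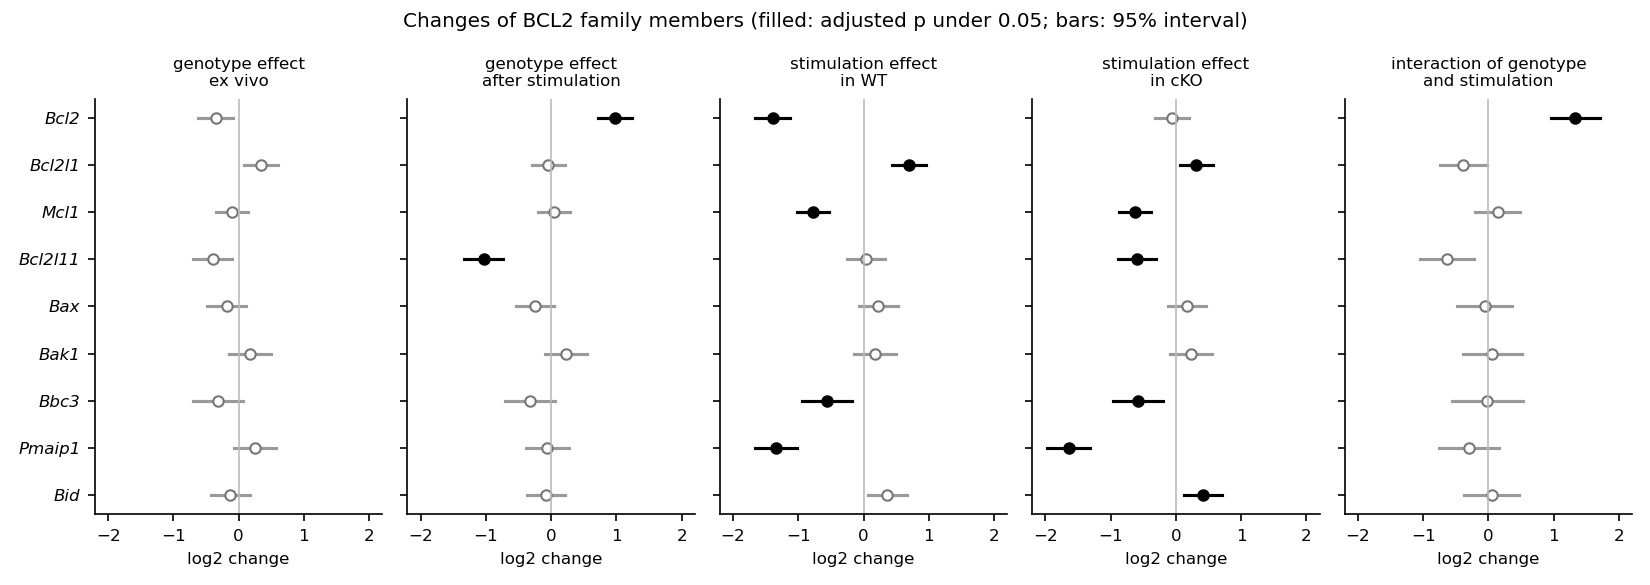
Log2 change (horizontal axes) of the 9 members (vertical axis) in the 5 comparisons, on the log2(scaled TPM + 1) scale. Points are limma estimates, bars are 95% intervals and filled points have an adjusted p under 0.05. Bcl2 is filled in 3 panels, at 0.98, -1.39 and 1.33, Bcl2l11 in 2, at -1.03 and -0.59, and 0 of 9 are filled in the genotype comparison ex vivo.

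More members changed with stimulation than with genotype. No group was cultured without the antibodies, so that effects of culture and of the antibodies cannot be told apart. In WT Treg 1 member rose and 4 fell, where 12.7% of the tested genes were higher and 19.3% lower by the test. In cKO Treg 2 rose and 4 fell, where 17.3% of the tested genes were higher and 26.5% lower by the test. Both stimulation comparisons share libraries with the genotype comparisons, so that the values are given side by side and their likeness is not counted as a result.

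Bcl2 fell by 1.39 on the log2 scale in WT (SE 0.12, adjusted p 1.57e-05), from 50.9 ± 5.42 to 18.7 ± 0.128 scaled TPM (SD, n = 3 each). In cKO it was at 39.7 ± 4.37 ex vivo and 38.1 ± 5.63 after stimulation, a difference of -0.06 with an interval of -0.33 to 0.20 (adjusted p 0.698). Other settings put this cKO difference of Bcl2 between -0.61 (1 TPM filter, adjusted p 0.132) and 0.36 (quantile normalization, adjusted p 0.00515). The 3 stimulated WT libraries lay under every ex vivo library, and the cKO groups overlapped. The test of the difference between these responses, the interaction, gave 1.33 (SE 0.17, adjusted p 0.0122), and 0.451% of the tested genes were higher and 0.653% lower by the same test. Bcl2 was the only member of the 9 that passed the interaction test. The call held in all 12 fits that left out a library (adjusted p of up to 0.0357) and in 8 of 12 other settings, but not with the filters of 1 TPM (1.03, adjusted p 0.632) or 2 TPM, without a filter, or with the deposited TPM (0.82).

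Bcl2l11 showed values the other way round. In WT it stood at 37.7 ± 5.37 scaled TPM ex vivo and 38.7 ± 4.39 after stimulation, a difference of 0.04 (adjusted p 0.839), whose sign turned with lower filters on TPM. In cKO it fell by 0.59 (SE 0.13, adjusted p 0.00497), from 28.4 ± 4.20 to 18.4 ± 1.70 scaled TPM, and the groups did not overlap. With quantile normalization the cKO difference was -0.31 (adjusted p 0.0516). The interaction of -0.63 (SE 0.19) did not pass the test with an adjusted p of 0.144, although the voom fit called it (adjusted p 0.0428), so the responses of the genotypes are not shown to differ for Bcl2l11.

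Mcl1 fell in both genotypes. It stood at 127, 119 and 156 scaled TPM in WT ex vivo and 79.1, 76.4 and 78.0 in WT stimulated, and fell by 0.77 (SE 0.11, adjusted p 0.000397). In cKO it went from 136, 109 and 130 to 79.8, 83.2 and 78.3, and fell by 0.63 (SE 0.11, adjusted p 0.00124). The stimulated libraries of both genotypes lay under all ex vivo libraries. With the deposited TPM the WT difference was -0.57 (adjusted p 0.0908), and with quantile normalization the cKO change was -0.02 (adjusted p 0.873).

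Pmaip1, whose protein binds MCL-1 with preference, had the largest fall of any member in cKO, by 1.64 (SE 0.15, adjusted p 1.37e-05), and fell by 1.34 in WT (SE 0.15, adjusted p 6.84e-05). Its stimulated libraries stood at 14.4, 18.3 and 14.8 scaled TPM in WT and 13.6, 19.8 and 12.8 in cKO, against 39.1 to 51.3 ex vivo. No stimulated library reached any ex vivo library. These Pmaip1 calls held in 13 of 13 other settings and in 12 of 12 fits that left out a library, in both genotypes. Bbc3 fell by 0.56 in WT (SE 0.17, adjusted p 0.0294) and by 0.58 in cKO (SE 0.17, adjusted p 0.0209). Its WT libraries overlapped, with 21.3, 13.9 and 21.8 ex vivo and 11.8, 15.1 and 10.3 stimulated, and the cKO libraries, with 15.8, 13.5 and 15.2 ex vivo, did not. The Bbc3 call in WT held in 7 of 13 other settings (adjusted p of up to 0.251) and was lost without WT ex vivo 3 (adjusted p 0.121) and without WT ex vivo 1, WT stimulated 1 or WT stimulated 3, and the call in cKO without cKO ex vivo 1 (0.0708), cKO ex vivo 3 or cKO stimulated 1.

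Bcl2l1 rose in WT, where Bcl2 fell, and was also called higher in cKO, where Bcl2 was not called. In WT it went from 19.4, 18.5 and 19.9 to 29.0, 36.1 and 31.0 scaled TPM and rose by 0.70 (SE 0.12, adjusted p 0.00105), with no overlap. In cKO it went from 26.3, 25.5 and 22.4 to 33.4, 34.0 and 26.0, with overlap, and rose by 0.31 (SE 0.12, adjusted p 0.0486). The WT rise was not called with filters of 1 TPM (0.46, adjusted p 0.324) and 2 TPM or without a filter. The cKO rise held in only 3 of 12 fits that left out a library (adjusted p of up to 0.216, without cKO stimulated 2), was lost with the replicate number as a block (adjusted p 0.0514), and turned to -0.23 when genes down to 1 TPM entered, so that its direction depends on the scaling. The interaction of -0.39 had an adjusted p of 0.317.

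Bid rose by 0.41 in cKO (SE 0.13, adjusted p 0.0287) and was 0.36 higher in WT (SE 0.13, adjusted p 0.0605), which passed with the replicate block (0.0325). Its libraries stood at 6.31, 7.89 and 7.18 scaled TPM in WT ex vivo and 9.10, 9.07 and 10.1 in WT stimulated, and at 5.12, 7.51 and 6.87 in cKO ex vivo and 8.10, 10.1 and 8.61 in cKO stimulated. The stimulated libraries lay above the ex vivo libraries in both genotypes. The cKO call was lost without cKO stimulated 2 (adjusted p 0.124) or cKO ex vivo 1 (0.115), and the sign turned with the lower filters. The effectors Bax and Bak1 did not pass in either genotype in the main limma fit. Each was called in 1 of 13 other settings in each genotype. The limma adjusted p-values there were 0.00953 in WT and 0.00396 in cKO for Bax, and 0.02 and 0.000913 for Bak1. Bax stood at 26.0 to 36.9 scaled TPM ex vivo and 35.0 to 36.7 stimulated in WT, with a difference of 0.23 (adjusted p 0.217), and at 25.6 to 27.1 and 26.7 to 36.2 in cKO, with 0.17 (adjusted p 0.32). Bak1 differed by 0.18 in WT and 0.24 in cKO, at adjusted p-values of 0.38 and 0.207, and overlapped in both.

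Library WT ex vivo 3 was left out as well, since it stands apart by sex. In WT stimulation Bcl2 was then at -1.39 (adjusted p 0.000138), Bcl2l1 at 0.73 (0.00323), Mcl1 at -0.65 (0.00127) and Pmaip1 at -1.28 (0.000459), all still called. Bax passed in that fit (0.38, adjusted p 0.0461) and Bbc3 did not (-0.45). The Bcl2 interaction was 1.37 (adjusted p 0.0258).

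Because each library measures all members at once, ratios between members are free of the scaling of libraries. They are given as a description, without a test. Ex vivo the ratio of Bcl2 to Bcl2l11 was 1.29, 1.34 and 1.43 in WT and 1.34, 1.38 and 1.49 in cKO, so the libraries of the genotypes overlapped. After stimulation it was 0.508, 0.431 and 0.521 in WT and 2.61, 2.07 and 1.63 in cKO. All WT libraries then held less Bcl2 than Bcl2l11 RNA per length, all cKO libraries held more, and the group means on the log2 scale were -1.04 ± 0.15 and 1.05 ± 0.34 (SD, n = 3).

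The ratio of Bcl2l1 to Bcl2l11 was higher in cKO than in WT in every library in both conditions. Its mean was 0.516 ± 0.0648 in WT and 0.880 ± 0.0964 in cKO ex vivo, and 0.827 ± 0.0387 and 1.71 ± 0.357 after stimulation. Mcl1 exceeded Bcl2l11 in all 12 libraries, by a ratio that averaged 3.61 ± 0.782 for WT and 4.45 ± 0.497 for cKO ex vivo, and 2.03 ± 0.245 for WT and 4.40 ± 0.431 for cKO after stimulation. The ex vivo genotypes overlapped in it and the stimulated genotypes did not. Mcl1 to Pmaip1, a pair whose proteins bind each other, ran from 2.93 to 3.51 in WT and from 2.40 to 2.65 in cKO ex vivo, without overlap, and from 4.19 to 6.13 after stimulation, with overlapping genotypes.

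**Figure D3:**
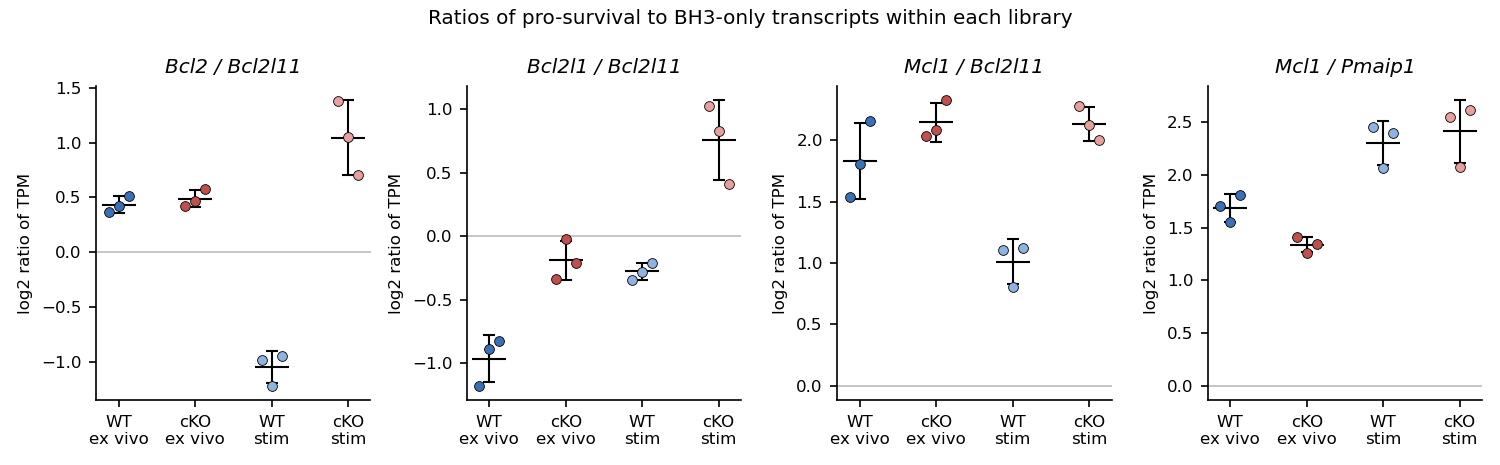
Log2 ratio of deposited TPM within each library (vertical axes) for 4 pairs of a pro-survival and a BH3-only gene, in 4 groups of 3 libraries (horizontal axes). Points are libraries, lines are means and bars are 1 SD. The ratio of Bcl2 to Bcl2l11 averages -1.04 in WT stimulated and 1.05 in cKO stimulated, with the ex vivo groups at 0.44 and 0.49.

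The 3 pro-survival genes can also be seen as shares of their own sum. Ex vivo Mcl1 made up 65.5 ± 3.26% of it for WT and 66.0 ± 1.99% for cKO, and after stimulation 60.6 ± 2.17% and 53.9 ± 3.26% (SD, n = 3). Bcl2 made up 25.0 ± 2.82% in WT ex vivo and 14.6 ± 0.182% in WT stimulated, and Bcl2l1 9.46 ± 0.649% and 24.9 ± 2.35%. Bcl2l1 thus took a larger share than Bcl2 in all 3 stimulated WT libraries. In cKO the Bcl2 share was 20.9 ± 0.634% ex vivo and 25.4 ± 2.02% after stimulation, and the Bcl2l1 share 13.1 ± 1.63% and 20.7 ± 1.41%.

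The 14 other genes of the family were mostly low. Of these, 7 reached 5 TPM in a group mean and were tested, Bcl2a1b, Bcl2a1d, Bcl2l2, Bmf, Bad, Bcl2l12 and Bcl2l13, and 0 of the 7 passed in either genotype comparison, in WT stimulation or in the interaction by limma. At an unadjusted p under 0.05 the counts were 1, 2, 2 and 1 in these 4 comparisons, and voom called 0, 1, 2 and 0. In cKO stimulation 2 of 7 rose (17.3% of all tested genes were higher and 26.5% lower, and voom called 1 of 7), Bcl2l2, the gene of pro-survival BCL-W, by 0.66 (SE 0.18, adjusted p 0.0136) and Bad, a BH3-only gene, by 0.44 (SE 0.15, adjusted p 0.0332), with a list median of -0.06 beside -0.01 over all tested genes. The Bad call held in 4 of 13 other settings and in 7 of 12 fits that left out a library (up to 0.114, without cKO stimulated 2), was lost with the replicate block (0.0538), and turned to -0.05 at the 1 TPM filter. That of Bcl2l2 was lost without cKO ex vivo 3 (0.0558). The A1 genes Bcl2a1b (8.12 to 13.7 scaled TPM as group means) and Bcl2a1d (13.2 to 19.7) are near-identical copies, and how reads were split between them is uncertain.

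Downstream of the family stand the apoptosome and the caspases, and 17 of the 18 genes of that list were tested. With stimulation in WT, 4 of the 17 rose and 3 fell, beside 12.7% and 19.3% of all tested genes. Apaf1, the scaffold of the apoptosome, rose by 0.74 (SE 0.07, adjusted p 3.12e-05), Casp9 by 0.54, Casp8 fell by 0.68 and Birc2, an inhibitor of apoptosis, fell by 1.11 (adjusted p 0.00012). In cKO 2 rose and 5 fell, beside 17.3% and 26.5%, among them Birc2 (fell by 1.59, adjusted p 9.08e-06) and Birc3 (fell by 0.60), and Casp9 rose by 0.63. The list medians were -0.09 in WT and 0.03 in cKO, beside 0.00 and -0.01 over all tested genes.

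Genes of the inputs to the family were read from lists in the same way. Of 11 tested genes that stand for p53 and forkhead inputs, 2 were higher and 1 lower in cKO ex vivo (all tested genes 3.62% and 1.67%) and 0 passed after stimulation by limma (all tested genes 3.3% and 3.63%), where 5 had an unadjusted p under 0.05 and voom called 2. Cdkn1a, a p53 target that halts the cell cycle, was at 16.1, 12.2 and 12.6 scaled TPM in WT ex vivo and 33.9, 25.8 and 29.1 in cKO ex vivo, a difference of 1.07 (SE 0.17, adjusted p 0.00535). Its groups did not overlap. Sesn2, a stress-response gene, was 0.45 higher (adjusted p 0.0321) and Ddit3, the stress factor CHOP, 0.61 lower in cKO (-0.61, adjusted p 0.034), each lost in some fits that left out a library (up to 0.125). The Ddit3 call was also lost with the replicate block (0.0738). With stimulation Ddit3 fell by 1.89 in WT (adjusted p 7.68e-06) and by 1.37 in cKO (adjusted p 4.35e-05). Foxo3, a forkhead factor known to activate Bcl2l11, fell by 0.56 in WT (adjusted p 0.00253) and by 0.55 in cKO (adjusted p 0.00227). Foxo1 fell by 0.88 in cKO (adjusted p 0.00133) and was at -0.35 in WT (adjusted p 0.112). In all, 2 of 11 rose and 3 fell in WT, where 12.7% of all tested genes were higher and 19.3% lower, and 2 rose and 7 fell in cKO, where these shares were 17.3% and 26.5%.

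Of the 11 genes of cytokine input, all were tested. Cish, a target of STAT5 that IL-2 induces, was higher in cKO in both conditions, at 44.0, 41.5 and 39.9 against 74.2, 56.3 and 74.7 scaled TPM ex vivo (0.69, SE 0.14, adjusted p 0.0205) and at 38.9, 39.6 and 40.0 against 91.5, 98.2 and 66.96 after stimulation (1.08, SE 0.14, adjusted p 0.00151). The genotypes did not overlap in either condition. The ex vivo call of Cish held in 8 of 12 fits that left out a library (up to 0.0882, without cKO ex vivo 3) and in 9 of 13 other settings, and the call after stimulation in 12 of 12 and 9 of 13. Pim1, a kinase that phosphorylates BAD, was 0.64 higher ex vivo (adjusted p 0.042), in 3 of 12 fits that left out a library (up to 0.158, without cKO ex vivo 1). That call was lost with the replicate block (0.0857). After stimulation Il2ra, a subunit of the IL-2 receptor, stood at 112, 124 and 122 scaled TPM in WT and 244, 228 and 165 in cKO (0.80, SE 0.15, adjusted p 0.00972). The Il2ra call held in 9 of 13 other settings (adjusted p of up to 0.48), and with the deposited TPM its genotypes overlapped. Il7r, the IL-7 receptor, was lower by 0.53 (-0.53, adjusted p 0.0266), which was lost without WT stimulated 3 (0.106) and with the replicate block (0.0574). In sum 2 of 11 were higher ex vivo (all tested genes 3.62% higher and 1.67% lower), and 2 higher and 1 lower after stimulation (all tested genes 3.3% and 3.63%), with list medians of 0.08 and 0.23 beside -0.01 and -0.03 over all tested genes.

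Jak3, a kinase of the IL-2 receptor, fell with stimulation by similar amounts in both genotypes (-1.10 in WT and -1.16 in cKO). Il2rb fell as well (-0.95 and -0.89), and Stat5a rose (1.02 and 0.96). Pim1 fell by 1.40 in cKO (adjusted p 6.75e-05) and by 0.52 in WT (adjusted p 0.0272). In the list as a whole, 2 of 11 rose and 4 fell in WT (all tested genes 12.7% and 19.3%), and 3 rose and 6 fell in cKO (all tested genes 17.3% and 26.5%).

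The death receptor pathway reaches the family through BID. Of its 10 genes 0 passed ex vivo by limma, 3 had an unadjusted p under 0.05 and voom called 0 (all tested genes 3.62% higher and 1.67% lower). After stimulation 2 were higher and 1 lower in cKO (all tested genes 3.3% and 3.63%). Tnfsf10, the gene of TRAIL, stood at 8.60, 6.48 and 8.11 scaled TPM in WT and 13.3, 13.8 and 13.1 in cKO (0.73, SE 0.12, adjusted p 0.00527), without overlap. With the deposited TPM its genotypes overlapped, and the call held in 9 of 13 other settings (adjusted p of up to 0.4). Ripk1 was 0.41 higher (adjusted p 0.0325; 0.123 without WT stimulated 2) and Tnfrsf1b, a TNF receptor, was at -0.50 (adjusted p 0.0261; 0.0977 without WT stimulated 3). With stimulation 2 of the 10 rose and 3 fell in WT, and 1 rose and 3 fell in cKO, beside 12.7% higher and 19.3% lower of all tested genes in WT and 17.3% and 26.5% in cKO. Tnfrsf1b rose by 0.78 in WT (adjusted p 0.000511) and Fas by 0.31 in cKO (adjusted p 0.0452, in 5 of 12 fits that left out a library). The Fas call was lost with the replicate block (0.0561). Fasl, the Fas ligand, fell by 1.32 in WT and by 0.64 in cKO, and Tnfrsf10b, the TRAIL receptor, fell by 0.86 and by 1.03. Of 8 tested genes of MCL-1 and BH3 protein turnover, 0 passed by limma in either genotype comparison, with 1 in each at an unadjusted p under 0.05 and 0 called by voom. With stimulation 1 rose and 3 fell in WT, and 4 fell in cKO, beside the same shares of all tested genes, among them Ywhaz, a 14-3-3 protein that binds phosphorylated BAD (fell by 1.06 and by 1.17), Dynll1, a dynein light chain that binds BIM (fell by 0.99 and by 0.58), and Huwe1, a ubiquitin ligase of MCL-1 (fell by 0.41 and by 0.67). The WT fall of Huwe1 (adjusted p 0.0374) held in 5 of 12 fits that left out a library (up to 0.137, without WT ex vivo 1).

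**Figure D4:**
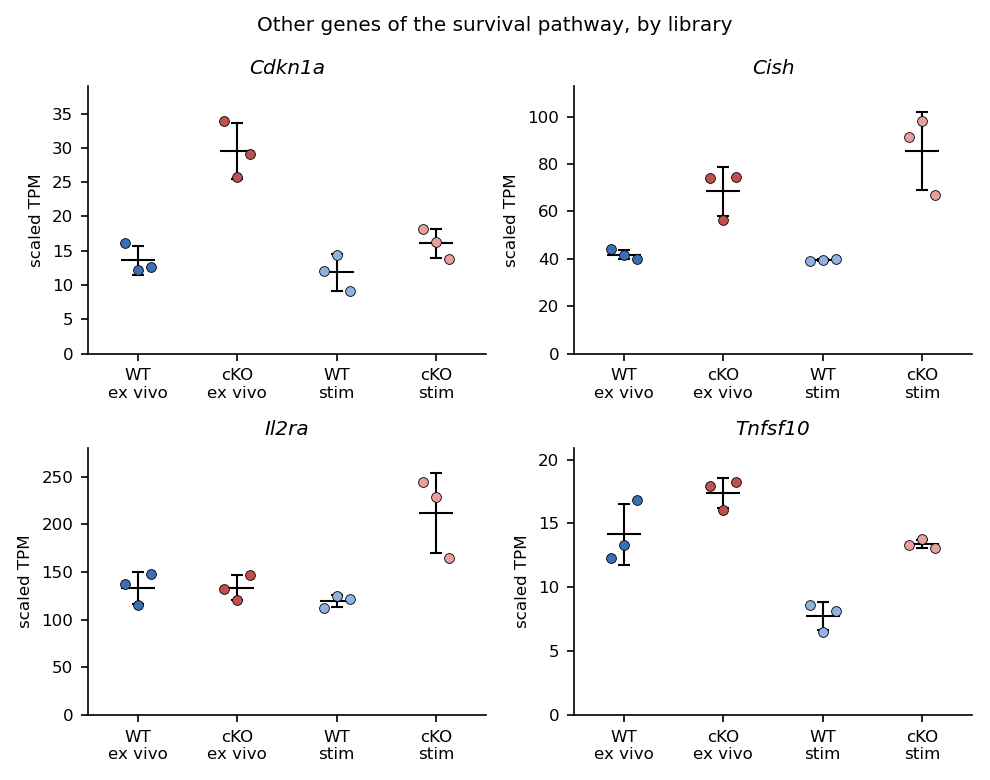
Scaled TPM (vertical axes, from 0) of 4 pathway genes that differed between genotypes in at least 1 condition, in 12 libraries of 4 groups (horizontal axes). Points are libraries, lines are means and bars are 1 SD. Cish lies at 56.3 to 98.2 in the 6 cKO libraries and at 38.9 to 44.0 in the 6 WT libraries, and Il2ra at 165 to 244 in cKO stimulated, above all other groups.

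The genes most like a member across the 12 libraries were found by Pearson's r of log2(scaled TPM + 1), as a description that includes the differences between the groups. For Bcl2 these were Slc22a5 (0.971), Abtb2 (0.969) and Gata1 (0.943), and for Bcl2l11 they were Ccdc64 (0.978), Cmah (0.973) and Ugcg (0.969). For Bcl2l1 they were Twsg1, Nelf and Tmem63b (0.960, 0.952 and 0.948), and for Mcl1 Gm15430, Wdr6 and Was (0.988, 0.986 and 0.985).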

How the data were processed

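Total RNA depleted of ribosomal RNA was made into directional libraries and sequenced from both ends by the authors. Per the labels, the authors aligned reads to mm9 with STAR 2.6.0c after bcl2fastq and counted them per gene with HTSeq 0.6.1, and the study's methods describe tests on those counts with edgeR. The deposited table holds, for each of 36222 genes and 12 libraries, a TPM signal that sums to 1000000 per library and a log2 of that TPM. A deposited table of the authors' own fold changes and p-values was not used.

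Whole reads were recovered from the deposited TPM and log2 columns for 99.9977% of 434664 values (within 0.01 of a whole number, 10 values not), and served for depth and for one alternative (voom). The design was kept as a single fit of all 12 libraries by group. TPM were scaled between libraries by a trimmed mean of M-values (30% of M and 5% of A trimmed), and log2(scaled TPM + 1) was fitted with limma 3.58.1 in R 4.3.3 with a mean-variance trend. The 13318 genes that reached 5 TPM in the mean of any group were tested, two-sided, with Benjamini-Hochberg adjustment over all of them within each of 5 comparisons, and called at an adjusted p under 0.05. The scripts were tested on simulated data. Figures were drawn with matplotlib 3.10.9 in Python 3.11.15.

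The members, lists and tests were chosen with earlier results of these data known. Named with values are the 9 members, Ikzf1, up to 4 called genes per pathway list and comparison with the largest change, and the 3 genes most like Bcl2, Bcl2l1, Mcl1 and Bcl2l11. Genes named outside that rule were chosen after their values were seen: the 7 tested genes of the other family list, Foxo3 in cKO, Foxo1 and Pim1 in WT, and Gm10800, Xist and Ddx3y. Some genes of the lists are not reported here by name. A fold change on this scale understates that of low genes. The alternatives were 3 other filters, 2 pseudocounts, 3 scalings, no trend, library weights, fits of the compared groups alone, voom, the replicate number as a block, and leaving out each library.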

Additional observations from a re-analysis of the deposited data

Results flagged for a closer look

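The response of Bcl2 to stimulation differed between genotypes by a test of that difference itself, with an interaction of 1.33 on the log2 scale (SE 0.17, limma adjusted p 0.0122). All 3 stimulated WT libraries held less Bcl2 than every WT ex vivo library, and the cKO libraries of both conditions overlapped. The call held in 12 of 12 fits that left out a library and in 8 of 12 other settings, and was lost with the lower filters and the deposited TPM (adjusted p of up to 0.652).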

How the results depend on the processing

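Members called numbered 0 ex vivo, 2 after stimulation, 5 in WT stimulation, 6 in cKO stimulation and 1 in the interaction. After stimulation the count was 0 with a 1 TPM filter, 1 with 2 TPM, 0 with no filter, 1 with the deposited TPM and 4 with quantile normalization. In WT stimulation it was 3 with each of the 3 filters and 3 with the deposited TPM. In the interaction it was 0 with each of these and 2 with voom, which called 1 ex vivo. Leaving out a library gave 0 ex vivo, 2 after stimulation, 4 to 6 in WT, 3 (without cKO ex vivo 1) to 7 in cKO, and 1 in the interaction.

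Over all genes the total called ex vivo was 704, against 57, 94 and 44 with filters of 1 TPM, 2 TPM and none, 273 with the deposited TPM, 1203 with voom and 325 to 740 with a library left out. After stimulation it was 923, against 52, 129 and 52 with the filters, 306 deposited, 1579 quantile, 2336 with library weights, 553 in the compared groups alone and 398 to 1058 with a library left out. In WT stimulation it was 4262, against 1731, 2303, 1676 and 1943 (deposited). In the interaction it was 147, against 0, 0 and 0, 67 deposited, 392 quantile, 95 without a trend, 505 with weights, 394 with voom and 50 to 206 with a library left out. The share called higher was 68.5% ex vivo (79.8% and 81.8% with 2 TPM and no filter, 95.2% deposited), 47.6% after stimulation (22.5% deposited, 33.9% without cKO stimulated 2, 66.9% without cKO stimulated 3), 39.6% in WT (17.1%, 18.5% and 15.6% with the filters, 60.5% deposited, 51.8% quantile), 39.5% in cKO (12.4%, 15.1% and 12.04%, 11.9% deposited) and 40.8% in the interaction (8.96% deposited, 26.7% without cKO stimulated 2, 61.8% without cKO stimulated 3). The deposited TPM moved the median of the tested genes to 0.21 ex vivo, -0.30 after stimulation, 0.18 in WT, -0.31 in cKO and -0.52 in the interaction, and a 1 TPM filter moved it to -0.31 after stimulation, -0.22 in WT, -0.52 in cKO and -0.32 in the interaction. The cause was not tested.

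Signs that turned follow, in log2, for filters of 1 TPM, 2 TPM and none unless another setting is named. Ex vivo, the deposited TPM gave 0.14 for Mcl1, 0.048 for Bax and 0.084 for Bid. After stimulation Mcl1 was -0.26, -0.22 and -0.26 (deposited -0.24), Bak1 -0.067, -0.036 and -0.074 (deposited -0.055), and Bcl2l1 0.10 with quantile normalization and 0.037 with weights. In WT stimulation Bcl2l11 was -0.21, -0.19 and -0.21, Bak1 -0.065, -0.046 and -0.072, and Bax -0.016 at 1 TPM and -0.023 unfiltered. In cKO stimulation Bcl2l1 was -0.23, -0.17 and -0.22 (deposited -0.0048), Bax -0.37, -0.32 and -0.37 (deposited -0.15), Bak1 -0.31, -0.26 and -0.30 (deposited -0.084), Bid -0.079, -0.030 and -0.073, Bad -0.052, -0.00301 and -0.047, and Fas -0.22, -0.17 and -0.22 (deposited -0.000802). Bcl2 in cKO stimulation was 0.0016 with median of ratios, 0.36 with quantile normalization and 0.029 with weights. In the interaction Mcl1 was -0.17, -0.13 and -0.15 (deposited -0.38), Bak1 -0.25, -0.21 and -0.23 (deposited -0.46), Bid -0.22, -0.19 and -0.21 (deposited -0.42, quantile -0.10, weights -0.033), Bax 0.059 with quantile normalization, and Bbc3 0.012 with a pseudocount of 5, 0.018 with median of ratios and 0.020 with weights.

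Replicate numbers do not pair the libraries: same-numbered libraries of different groups had correlations of deviations from -0.208 to 0.257, 2 of 18 over 0.1. With the replicate number as a block, members called were 2 after stimulation and 1 in the interaction (Bcl2, adjusted p 0.0223), Bid passed in WT stimulation (0.0325), Bcl2l1 missed in cKO stimulation (0.0514), and the interaction total over all genes was 65. Of 60 changes that the naming rule picks from the lists, 18 were called in every other setting and 43 in every fit with a library left out. Read depth limits Bbc3 and Bid most, whose values rest on as few as 113 and 160 reads.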
